A study of Danio rerio with 10 samples.

Results

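Cholesterol is built from acetyl-CoA by a chain of enzymes, and 10 genes of that chain were followed here in zebrafish kidney marrow: hmgcs1, hmgcra, idi1, fdps, fdft1, sqlea, lss, cyp51 and dhcr7, which encode enzymes, and insig1, which encodes a regulator of the chain. All probe sets that carried 1 of these symbols and no other in the array's annotation were taken, whatever their signal, with no filter. Of the 10 genes, 6 had a probe set, and they had 12 probe sets between them, out of 15502 probe sets and 8793 named genes on the array. No probe set carried the symbol or the gene ID of hmgcra, idi1, sqlea or lss, and these 4 were not analysed here.

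The tissue was kidney marrow, the site of blood cell formation in the adult zebrafish. The tested fish overexpressed human CREB, a transcription factor that acts downstream of cyclic AMP, and were set against control fish, with 5 animals in each group. Total RNA was hybridised to Affymetrix zebrafish arrays, which gave 5 CREB and 5 control arrays, numbered 1 to 5 within each group by their titles. The promoter that drove the transgene, the strain, and the sex and age of the fish are not given in the sources used here. The level of the human transcript was not analysed here.

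The chain starts with hmgcs1, runs through mevalonate to the isoprenoid farnesyl diphosphate, and from there through squalene and lanosterol to cholesterol. Its genes are known as targets of the sterol regulatory element binding proteins (SREBPs), transcription factors that are released from the endoplasmic reticulum when membrane sterol is low. INSIG proteins hold the SREBPs back there and, in mammals, also mark HMG-CoA reductase, the product of the hmgcra orthologue, for degradation.

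All values are on the log2 scale of the deposited table, and each difference is CREB minus control with its standard error, so that a difference of 1 is a doubling of signal. Calls are from limma, two-sided, with Benjamini-Hochberg adjustment over all 15502 probe sets and an adjusted p under 0.05. Levels of different probe sets are not set against each other, because probes differ in how strongly they bind. In RNA of a whole tissue, fewer cells of a type and less RNA per cell cannot be told apart.

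The arrays differed between the groups in more than these genes. Of all probe sets, 4692 were called, 3640 of them higher in CREB. The 3 classes of Affymetrix control probe sets for sequences foreign to the fish genome (tags, bacterial genes and red fluorescent reporters) were also brighter on the CREB arrays: all 46 of these had the higher mean there, by a median of 0.25 and a range of 0.04 to 0.62. The 18 probe sets for spike-ins added at hybridisation split the CREB arrays. They averaged 10.92 and 10.31 on CREB arrays 3 and 5, above every control array. On CREB arrays 1, 2 and 4 they averaged 8.09 to 9.03, below every control array. The group means were 9.47 in CREB and 9.77 in control, with control array means of 9.36 to 9.97. Blood cell genes of the marrow were measured in both groups: the neutrophil gene lyz averaged 13.48 in CREB and 14.07 in control and was called lower (limma, adjusted p = 0.0336), and the globin gene hbaa1, among the brightest on the array, averaged 14.46 in CREB and 14.50 in control. None of 8 erythroid markers was called. Their median difference was -0.21, and they went both ways, with hbba2 at -1.32 and gata1a at 0.58. Their mean levels were 8.26 to 10.08 in CREB and 9.12 to 9.99 in control. Over all named genes, 19.3% were called higher and 9.09% lower, shares to set beside the marker counts that follow. Of 8 neutrophil markers 4 were called lower in CREB, with mean levels of 9.37 to 10.54 on the CREB arrays and 10.25 to 11.31 on the control arrays. Of 6 thrombocyte markers 3 were called lower, with mean levels of 4.54 to 5.11 in CREB and 5.14 to 6.66 in control. The other 3 did not pass and went both ways, with fli1 at -0.73, gp1bb at 0.38 and thbs1b at 0.29. Macrophage markers had 1 of 8 called lower, and lymphoid markers had 2 of 3 called higher. Lymphoid mean levels were 5.12 to 5.53 in CREB and 4.67 to 5.07 in control. Cell cycle genes, 23 measured, had 10 called lower and 1 higher, at 6.77 to 7.93 in CREB and 7.52 to 8.63 in control. Of 18 skeletal muscle markers, 16 were called higher in CREB, with mean levels of 7.48 to 10.03 on the CREB arrays and 5.24 to 5.73 on the control arrays, and 9 of 13 kidney markers were called higher, at 8.54 to 9.81 in CREB and 7.46 to 8.41 in control. Their part in the differences of the sterol genes was not tested. The gonad and egg markers averaged 9.64 and 9.53 on control arrays 3 and 5, and 5.25 to 7.86 on the other 8 arrays. The exocrine pancreas markers averaged 10.09 and 11.15 on control arrays 4 and 5, and 6.09 to 7.06 on the other 8. On CREB arrays 3 and 5, the probe set for the start of the gapdh transcript read 6.50 and 6.74. It read 9.92 to 10.37 on CREB arrays 1, 2 and 4, and 9.54 to 10.70 on the control arrays. The probe set for the end of that transcript differed little, at 11.20 to 11.91 in CREB and 10.79 to 12.05 in control.

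The genes did not move as one. At the level of genes, with the brightest probe set standing for a gene that has several, dhcr7, cyp51 and fdft1 were higher in CREB, fdps was lower, and hmgcs1 and insig1 did not pass. When all probe sets of a gene were averaged instead, cyp51 differed by 0.32 and did not pass (limma, adjusted p = 0.0529), insig1 differed by 0.12, and the calls of dhcr7, fdft1 and fdps held. Of the 12 probe sets, 4 were called higher and 1 lower, and 7 did not pass. Over all probe sets, 30.3% were called, 23.5% higher and 6.79% lower, so 5 calls in 12 is a share of the same order as elsewhere on the array. Taken as genes, 4 of 6 were called, 3 higher and 1 lower, where 28.4% of all named genes were called, 19.3% higher and 9.09% lower. In 2 probe sets every CREB array lay above every control array, which holds for 19.6% of all probe sets, and in 1 every CREB array lay below, which holds for 4.2%, or 23.8% for either. The median difference of the 6 genes was 0.58, or 0.45 when probe sets were averaged per gene, beside 0.10 over all genes by the brightest probe set and 0.18 over all probe sets.

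**Figure D1:**
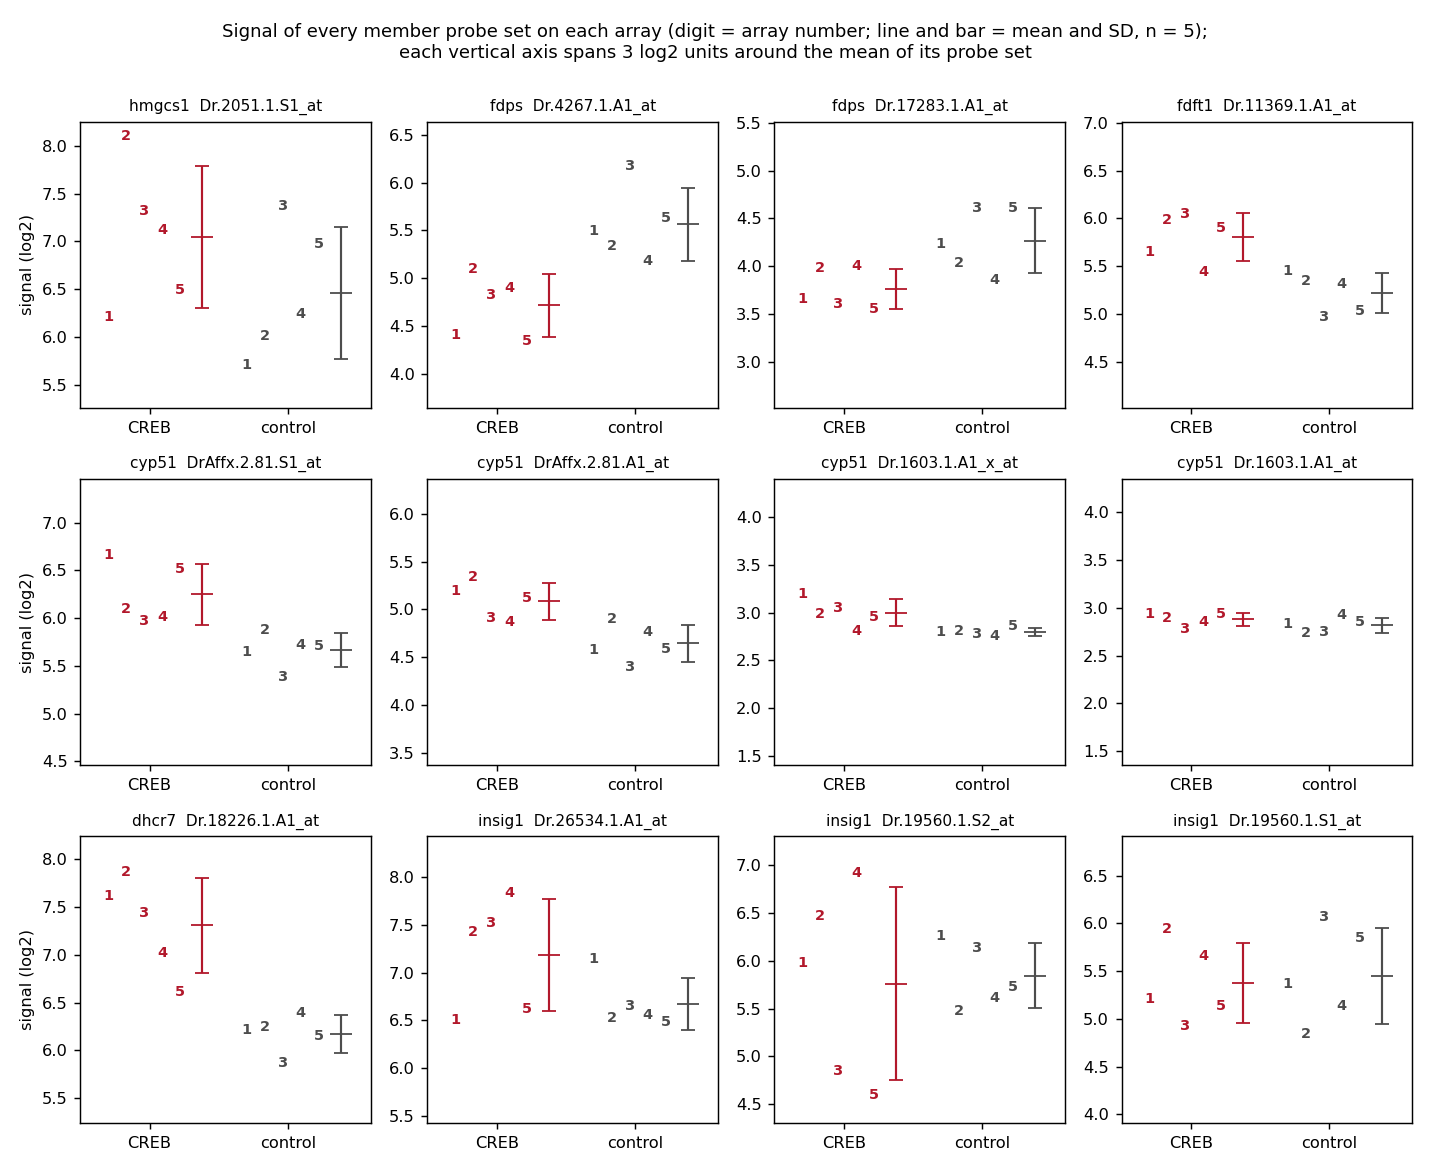
Log2 signal (vertical axes) of each of the 12 probe sets on the 5 CREB arrays (left in each panel) and the 5 control arrays (right), in pathway order, with a point for each array and the mean and SD of each group. In dhcr7 the CREB points, 6.61 to 7.87, all lie above the control points, 5.87 to 6.40, while in the brighter fdps probe set the order is the opposite.

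The entry to the chain, hmgcs1, did not pass. Its product is the cytosolic HMG-CoA synthase, which joins acetoacetyl-CoA and acetyl-CoA into the substrate of HMG-CoA reductase. Its probe set read 6.21, 8.10, 7.32, 7.12 and 6.50 on CREB arrays 1 to 5 and 5.71, 6.01, 7.38, 6.24 and 6.97 on control arrays 1 to 5. The groups overlapped over most of their range, and the control arrays with the highest values were 3 and 5. The difference was 0.59 ± 0.41, with a 95% interval from -0.32 to 1.50 (limma, adjusted p = 0.279). That interval holds 0 and reaches past a doubling of signal, so 5 arrays a group did not settle whether hmgcs1 changed. The difference was 0.33 without CREB array 2, 0.82 without control array 3 and 1.06 without control arrays 3 and 5, an alternative chosen after seeing the data, and it passed in none of these. Each of these leaves out the highest values of a group, which moves the difference by construction.

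The branch point, fdps, was the 1 gene that fell. Its product, farnesyl diphosphate synthase, makes the isoprenoid that goes either to sterols or to the lipid anchors of proteins. The brighter probe set read 4.40, 5.10, 4.82, 4.90 and 4.35 on CREB arrays 1 to 5, against 5.50, 5.34, 6.17, 5.18 and 5.63 on control arrays 1 to 5. Every CREB array lay below every control array, with CREB array 2 nearest to control array 4. The means were 4.71 ± 0.33 in CREB and 5.56 ± 0.38 in control (SD, n = 5 each), a difference of -0.85 ± 0.21 and a signal 1.80 times lower in CREB (limma, adjusted p = 0.0178). The tag, bacterial and reporter control probe sets were brighter in CREB. The hybridisation spike-ins lay on both sides of the control arrays, with array means of 8.09 to 10.92 in CREB and 9.36 to 9.97 in control. Among all probe sets with a mean of 4.5 to 6, where this one lies, 4.58% were called lower and 29.8% higher. The part of the shift between the groups in the fdps difference was not tested. This fdps call held with each single array left out, under quantile, median and cyclic loess scaling, and in 16 of 21 alternatives in all.

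The second fdps probe set read 3.66, 3.98, 3.60, 3.996 and 3.56 on CREB arrays 1 to 5 and 4.23, 4.03, 4.61, 3.85 and 4.61 on control arrays 1 to 5. Control array 4 lay below CREB arrays 2 and 4, so the groups overlapped. The difference was -0.51 ± 0.18 and did not pass (limma, adjusted p = 0.0533), but it passed at -0.57 without CREB array 4 and at -0.61 without control array 4. Those were its highest CREB and its lowest control array, so leaving either out widens the fall by construction. It also passed under quantile, median and cyclic loess scaling. In all, this probe set passed in 6 of 21 alternatives, these included. The probe set was dim, at means of 3.76 in CREB and 4.27 in control, beside 3.83 and 3.59 for the bacterial control probe sets. At that signal it adds little to the brighter probe set. In both fdps probe sets control arrays 3 and 5 were the highest, and these are the 2 control arrays with the highest gonad and egg markers. In the brighter probe set, leaving out those 2 highest control arrays makes the fall smaller by construction. The difference was then -0.62 and did not pass (limma, adjusted p = 0.0623, where the other alternatives gave between 0.0138 and 0.122). This alternative was chosen after seeing the data. The part of egg or gonad RNA in the fdps difference was not tested.

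The first enzyme given over to sterols, squalene synthase, is the product of fdft1, and its probe set was called higher. It read 5.65, 5.99, 6.05, 5.44 and 5.90 on CREB arrays 1 to 5, against 5.45, 5.34, 4.97, 5.31 and 5.03 on control arrays 1 to 5. Of the CREB arrays, 4 lay above all control arrays, and CREB array 4 lay just below control array 1. The means were 5.80 ± 0.26 in CREB and 5.22 ± 0.21 in control (SD, n = 5 each), a difference of 0.58 ± 0.15 (limma, adjusted p = 0.0201). In fdft1 the lowest control arrays were 3 and 5, the reverse of fdps. The call held with each single array left out, and in 14 of 22 alternatives in all.

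The lanosterol demethylase gene cyp51, whose enzyme takes the first methyl group off lanosterol, had 4 probe sets. The brightest read 6.66, 6.09, 5.97, 6.01 and 6.52 on CREB arrays 1 to 5, against 5.65, 5.88, 5.38, 5.72 and 5.70 on control arrays 1 to 5. Every CREB array lay above every control array, by least between CREB array 3 and control array 2. The difference was 0.58 ± 0.16, with means of 6.25 ± 0.32 in CREB and 5.67 ± 0.18 in control (SD, n = 5 each; limma, adjusted p = 0.0255). It passed in 10 of 22 alternatives and was lost without CREB array 5 (0.52), control array 1 (0.58) or control array 3 (0.51).

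The next cyp51 probe set read 5.20, 5.33, 4.91, 4.87 and 5.12 on CREB arrays 1 to 5, against 4.57, 4.90, 4.40, 4.77 and 4.58 on control arrays 1 to 5. CREB array 4 lay below control array 2, and the other CREB arrays lay above all control arrays. The difference was 0.44 ± 0.13 (limma, adjusted p = 0.0332), and it passed in 5 of 21 alternatives. The call was lost at 0.38 to 0.47 when CREB array 1, 2 or 5, or control array 1, 3, 4 or 5, was left out. The other two cyp51 probe sets were among the dimmest on the array, between 2.78 and 3.20 in CREB and between 2.73 and 2.92 in control, below the control probe sets for bacterial genes at a mean of 3.83 in CREB and 3.59 in control. Their differences were 0.20 ± 0.10 and 0.07 ± 0.09 and did not pass (limma, adjusted p = 0.137 and 0.571). At that signal they cannot show whether cyp51 changed, and the cyp51 calls rest on the brighter probe sets alone. Whether the 4 cyp51 probe sets read the same strand or the same part of the transcript was not tested. The calls of the brighter ones are therefore not read as separate evidence for cyp51.

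The control probe sets give values to set beside fdft1 and cyp51. The 2 control probe sets for red fluorescent reporter genes averaged 6.10 to 6.75 on the CREB arrays and 5.40 to 6.01 on the control arrays, a difference of 0.58 (6.30 in CREB, 5.72 in control). Whether the fish carried such a reporter was not tested. The 17 tag control probe sets differed by 0.25, at means of 4.33 in CREB and 4.08 in control, and the 27 bacterial ones by 0.24. Among all probe sets with a mean of 4.5 to 6, the median difference was 0.26, and 29.8% were called higher and 4.58% lower. The brightest cyp51 probe set, at a mean of 5.96, lay at the top edge of that range. From 6 to 7.5 the median difference was -0.04, and 16.4% were called higher and 10.8% lower. When the arrays were rescaled to equal quantiles, to equal medians or by cyclic loess, the median of all probe sets went to 0.04, 0.12 and -0.01, and neither fdft1 nor cyp51 passed under any of these 3 scalings. The fdft1 difference was then 0.47, 0.52 and 0.37, with adjusted p from 0.0619 to 0.116 in limma. That of the brightest cyp51 probe set was 0.55, 0.52 and 0.44, with adjusted p from 0.0537 to 0.0731, and that of the next was 0.21, 0.38 and 0.16. The part of the shift in these differences was not tested.

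**Figure D2:**
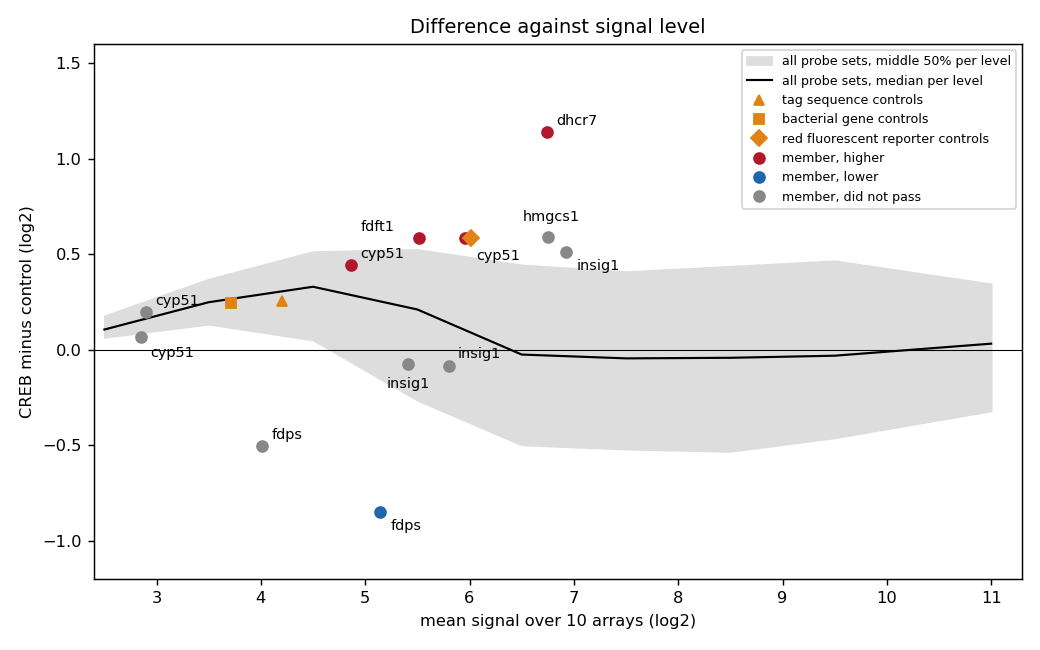
Difference, CREB minus control (vertical axis, log2), against mean log2 signal over the 10 arrays (horizontal axis) for the 12 probe sets, with the median (line) and middle quartiles (grey) of all probe sets in ranges of signal, and 3 classes of control probe sets. The fdft1 and cyp51 probe sets lie where the median of all probe sets is itself above 0, while dhcr7 stands at 1.14 where that median is near 0, and fdps stands below it.

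The last step had the largest difference of the 12 probe sets. The product of dhcr7 is the reductase that turns dehydrocholesterol into cholesterol. Its probe set read 7.62, 7.87, 7.44, 7.02 and 6.61 on CREB arrays 1 to 5, against 6.21, 6.24, 5.87, 6.40 and 6.15 on control arrays 1 to 5. Every CREB array lay above every control array, and CREB array 5 came nearest, to control array 4. The means were 7.31 ± 0.50 in CREB and 6.17 ± 0.19 in control (SD, n = 5 each), a difference of 1.14 ± 0.23 with a 95% interval from 0.64 to 1.64 and a signal 2.20 times higher in CREB (limma, adjusted p = 0.00843). Of all probe sets, 3.9% had a larger positive difference.

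Among all probe sets with a mean of 6 to 7.5, the range that holds dhcr7, the median difference was -0.04, and 16.4% were called higher and 10.8% lower. The reporter control probe set within that range differed by 0.58. The dhcr7 difference passed in 22 of the 23 alternatives, the 3 scalings included, with values from 0.85 to 1.33. The exception left out control arrays 3, 4 and 5, where the difference was 1.08 (limma, adjusted p = 0.105, the highest of a range that starts at 0.00561). That alternative leaves 2 control arrays, and 369 probe sets in all passed under it.

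**Figure D3:**
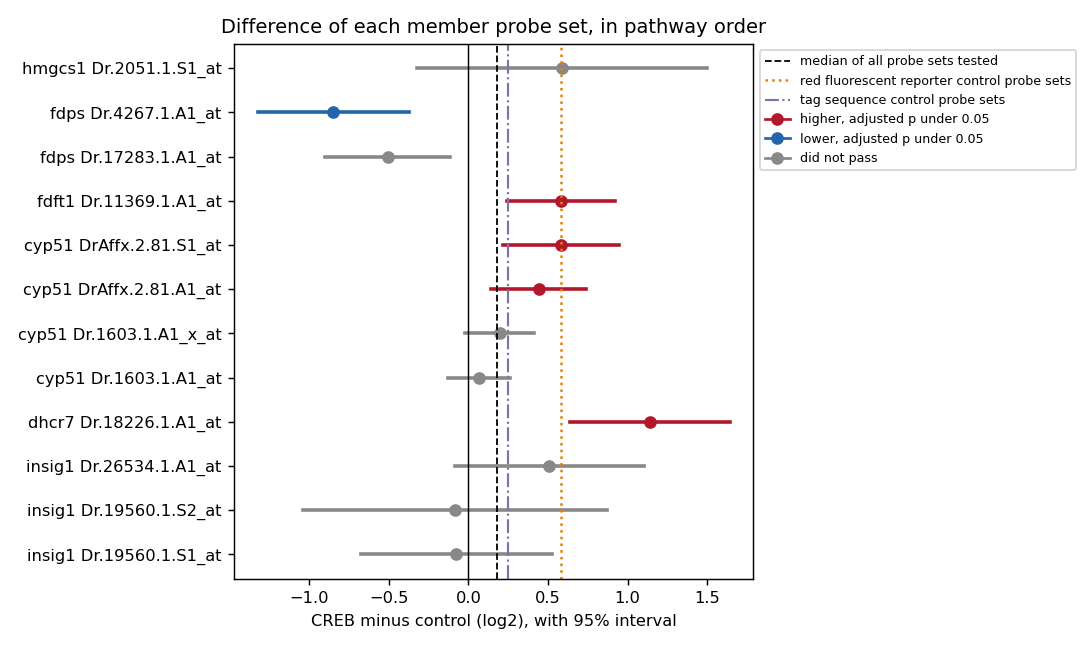
Difference, CREB minus control (horizontal axis, log2), with its 95% interval for each of the 12 probe sets in pathway order, with dashed or dotted lines at the median of all probe sets, 0.18, and at the tag and red fluorescent reporter control probe sets. The intervals of dhcr7 and of the brighter fdps probe set lie on opposite sides of 0, and that of hmgcs1 reaches from -0.32 to 1.50.

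The regulator insig1 had 3 probe sets, and none passed in the limma fit as designed, with unadjusted p of 0.0856, 0.848 and 0.782. The brightest read 6.51, 7.43, 7.52, 7.84 and 6.62 on CREB arrays 1 to 5 and 7.14, 6.53, 6.65, 6.56 and 6.49 on control arrays 1 to 5. CREB arrays 2, 3 and 4 lay above all control arrays, and arrays 1 and 5 lay among them. The difference was 0.51 ± 0.27 (limma, adjusted p = 0.161), and no alternative brought it past the threshold.

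The second insig1 probe set had the widest spread of the 12 on the CREB arrays. It read 5.97, 6.47, 4.85, 6.92 and 4.60 on CREB arrays 1 to 5 and 6.27, 5.48, 6.14, 5.61 and 5.73 on control arrays 1 to 5, a difference of -0.08 ± 0.43 (limma, adjusted p = 0.890). The low CREB arrays, 3 and 5, were the ones with low signal for the start of gapdh. Leaving out these 2, the lowest CREB values of this probe set, raises the difference by construction, to 0.61 (limma, adjusted p = 0.137, within a range of 0.0179 to 0.988).

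The last insig1 probe set read 5.20, 5.94, 4.92, 5.66 and 5.13 on CREB arrays 1 to 5 and 5.36, 4.85, 6.06, 5.13 and 5.84 on control arrays 1 to 5. The groups overlapped throughout, with a difference of -0.08 ± 0.27 (limma, adjusted p = 0.838). Its highest control arrays were 3 and 5, as in hmgcs1 and fdps. The 3 probe sets of insig1 thus gave no common direction.

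From array to array, with the mean of each group taken off, the 6 genes did not rise and fall as one block. Over the 10 arrays hmgcs1 and fdps were the pair most alike, with a Pearson r of 0.86, and fdps and cyp51 the pair most opposed, with an r of -0.82. The cyp51 values also ran opposite to hmgcs1, with an r of -0.73, and to the brightest insig1 probe set, with an r of -0.81. Over all 15 pairs of genes the median r was 0.06. Markers of other tissues also differed from array to array, and the correlations are given as a description. The 2 fdps probe sets followed each other with an r of 0.83, and the 2 brighter cyp51 probe sets with an r of 0.61. The brightest cyp51 probe set followed the 2 dim ones nearly as closely, with an r of 0.525 and 0.538.

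Outside the chain, all named genes were ranked by how closely their brightest probe set followed the mean of the 6 genes. This was done over the 10 arrays with group means taken off, and clone names were passed over. The first 6 were glmna (r = 0.96), ndnl2 (0.94), mon1a (0.93), hspa9 (0.92), emc1 (0.91) and atrn (0.91). They are the highest r out of a large number of genes on 10 arrays and are given as a description. The gene hspa9 encodes a mitochondrial chaperone and emc1 a subunit of a complex that inserts proteins into the endoplasmic reticulum membrane. Of these 6 only atrn was itself called, with a difference of 0.69 ± 0.18 (limma, adjusted p = 0.0197).

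Other enzymes of cholesterol synthesis, in a list chosen with earlier results of these data known, were called lower where they passed. Of 16, 6 were measured, and by the brightest probe set of each, limma called 2 lower and 4 did not pass. Over all named genes, 9.09% were called lower and 19.3% higher. The list's median difference was -0.42, beside 0.10 over all genes. The gene acat2 encodes the thiolase that supplies hmgcs1. It read 7.04, 7.51, 6.87, 7.50 and 6.81 on CREB arrays 1 to 5, against 7.38, 7.84, 7.92, 7.67 and 7.97 on control arrays 1 to 5, and CREB arrays 2 and 4 lay above the lowest control array. The difference was -0.61 ± 0.18 (limma, adjusted p = 0.0307), a call lost at -0.64 to -0.53 in 7 of the 10 fits that left out 1 array: CREB array 1, 3 or 5, or control array 2, 3, 4 or 5.

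The lamin B receptor gene lbr encodes a nuclear membrane protein that is also a sterol reductase. It read 8.73, 8.16, 8.26, 8.53 and 8.66 on CREB arrays 1 to 5, against 9.52, 9.29, 8.80, 9.60 and 8.96 on control arrays 1 to 5. The groups did not overlap, and the difference was -0.77 ± 0.19 (limma, adjusted p = 0.0158). A further lbr probe set differed by -0.87 and did not pass (limma, adjusted p = 0.162).

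The 4 that did not pass were nsdhl, mvk, ggps1 and msmo1. Of these, ggps1 is not on the route to cholesterol itself and is also counted among the isoprenoid genes below. In nsdhl, whose enzyme works with the msmo1 product in removing methyl groups after cyp51, the CREB arrays read 4.10 to 5.05, while control arrays 3 and 5 read 6.94 and 7.18 and the other 3 control arrays 4.80 to 5.02. The mevalonate kinase gene mvk and the geranylgeranyl diphosphate synthase gene ggps1 were also highest among the control arrays on arrays 3 and 5, as were hmgcs1 and fdps. In msmo1 those 2 were instead among the lowest control arrays, at 6.20 and 5.85.

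Sterol sensing genes around insig1 were measured for 5 members, of which 2 were called higher, where 19.3% of all named genes were called higher. With so few genes that count is not read as a result about the list, and the genes are given one by one. The paralogue insig2 read 6.07, 5.89, 5.91, 5.60 and 6.03 on CREB arrays 1 to 5, against 5.45, 5.41, 5.20, 5.33 and 5.17 on control arrays 1 to 5, with no overlap and a difference of 0.59 ± 0.12 (limma, adjusted p = 0.00848). The retinoid X receptor gene rxrab differed by 0.46 ± 0.12 (limma, adjusted p = 0.0198). Its signal was dim, at means of 4.54 in CREB and 4.08 in control, beside 4.33 and 4.08 for the tag control probe sets. The insig2 call held under all 3 scalings, at 0.39 to 0.53, while rxrab lost its call under all 3, at 0.20, 0.40 and 0.18 (quantile, median and cyclic loess).

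Of 17 genes of cholesterol uptake, transport, efflux and storage, 3 were called higher, 3 lower and 11 did not pass, where 19.3% of all named genes were called higher and 9.09% lower. The share called higher is near that of all genes, and the genes are given one by one. The lower ones included npc1 and npc2.1, whose products move cholesterol out of lysosomes. The membrane protein gene npc1 read 5.91, 5.69, 5.72, 5.79 and 5.75 on CREB arrays 1 to 5, against 6.71, 6.97, 6.70, 7.19 and 6.30 on control arrays 1 to 5. The groups did not overlap, the difference was -1.003 ± 0.157 (limma, adjusted p = 0.00421), and npc1 passed in all 23 alternatives. Its soluble partner npc2.1 differed by -0.91 ± 0.28 (limma, adjusted p = 0.0367), with CREB array 4 among the control arrays. That call was lost at -0.95 to -0.73 when any 1 array but CREB array 2 or 4 was left out.

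The gene mylipa encodes a ubiquitin ligase known in mammals to send the LDL receptor to degradation, and it differed by -1.29 ± 0.33 (limma, adjusted p = 0.0194). Control arrays 3 and 5 were its highest, at 10.27 and 9.76. The mylipa call held in 18 of 23 alternatives, with differences from -1.54 to -0.82. The smallest fall, -0.82, came without control arrays 3 and 5, which shrinks it by construction. Cyclic loess (-1.30) was among the settings in which mylipa did not pass. Of the higher genes, the sterol transfer protein gene stard4 differed by 0.56 ± 0.12, the apolipoprotein gene apoa4a by 1.02 ± 0.23 and the lipase gene lipca by 0.68 ± 0.19 (limma, adjusted p = 0.0111, 0.0125 and 0.0277). In stard4 and apoa4a every CREB array lay above every control array. The lipca call was lost at 0.57 to 0.69 without CREB array 1, 3 or 5, or control array 1, 3 or 5, and at 0.39 to 0.61 under the 3 scalings. Apolipoproteins and lipca are also made by liver, and the 20 measured liver markers averaged 8.83 on CREB array 5, 6.13 to 6.64 on the other CREB arrays and 5.74 to 6.84 on the control arrays. The part of liver RNA was not tested.

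**Figure D4:**
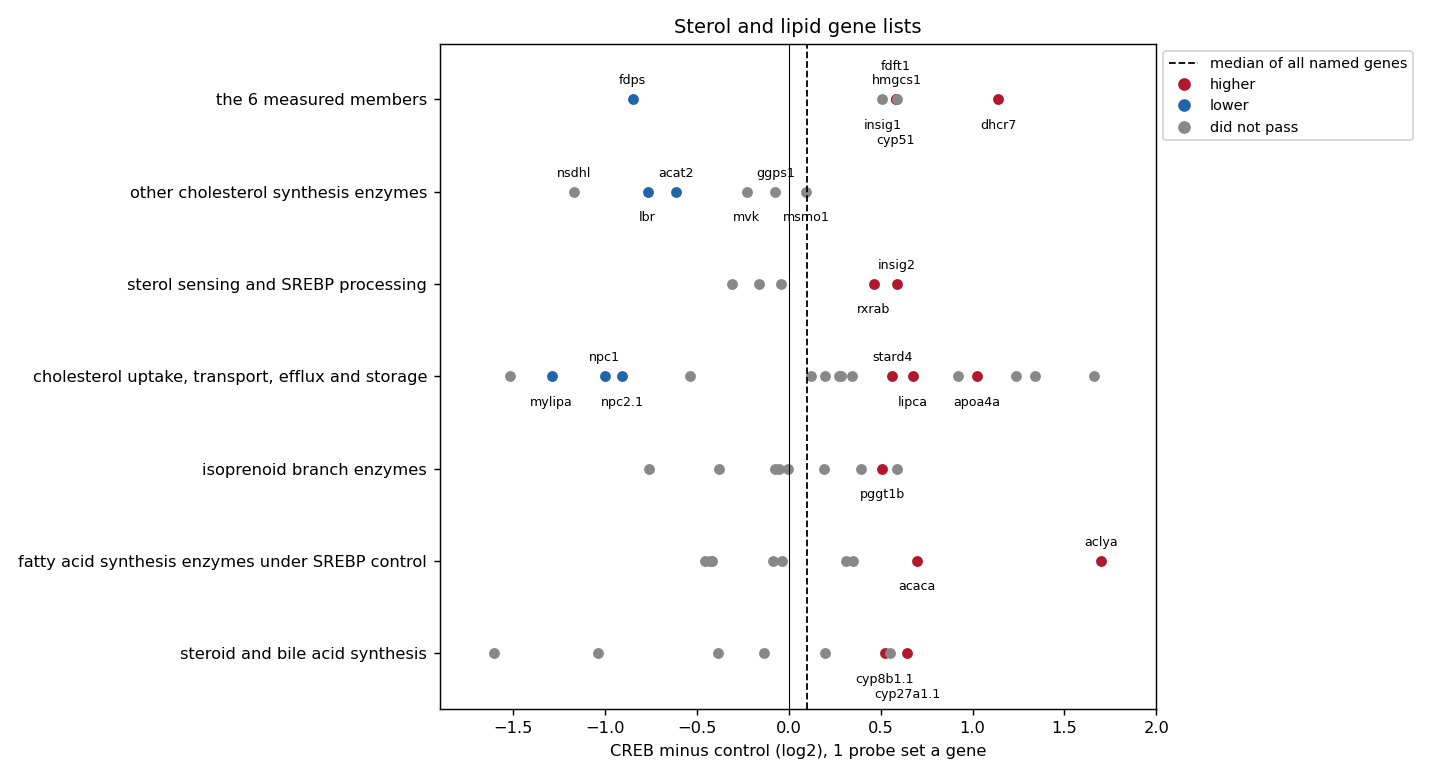
Difference, CREB minus control (horizontal axis, log2), of each measured gene in the 6 genes of the chain and in the other sterol and lipid lists (rows), with genes called higher, called lower and not passed in different colours and the median of all named genes, 0.10, as a dashed line. The points of fdft1 and cyp51 lie under that of hmgcs1 at about 0.58, and the other cholesterol enzymes lie mostly below 0.

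The SREBP-controlled genes of fatty acid synthesis, 9 measured, had 2 called higher, a share near the 19.3% of all named genes. The ATP citrate lyase gene aclya, whose enzyme supplies the acetyl-CoA for both sterols and fatty acids, read 8.01, 7.82, 8.13, 6.72 and 8.46 on CREB arrays 1 to 5, against 6.49, 6.54, 5.67, 6.20 and 5.75 on control arrays 1 to 5. The groups did not overlap, and the difference was 1.70 ± 0.32 (limma, adjusted p = 0.00688). The acetyl-CoA carboxylase gene acaca differed by 0.70 ± 0.20 (limma, adjusted p = 0.0273), a call lost at 0.62 to 0.70 without CREB array 5, control array 2 or control array 5, and at 0.63 to 0.72 under the 3 scalings. The other 7 genes did not pass.

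Of 9 isoprenoid genes beside the chain, 1 was called. It was pggt1b, a subunit of the enzyme that attaches geranylgeranyl groups to proteins, at 0.51 ± 0.12 (limma, adjusted p = 0.0156). To set beside this count and the next, 28.4% of all named genes were called and 19.3% were called higher. Of 8 genes of steroid and bile acid synthesis, which use cholesterol, the hydroxylase genes cyp8b1.1 and cyp27a1.1 were called higher, at 0.52 ± 0.11 and 0.65 ± 0.17 (limma, adjusted p = 0.00918 and 0.0211), and 6 did not pass. The cyp8b1.1 call held under quantile and median scaling and was lost at 0.27 under cyclic loess, while cyp27a1.1 lost its call under all 3 scalings, at 0.39, 0.58 and 0.37. A further cyp8b1.1 probe set, dim at a mean of 3.13, differed by 0.07 and did not pass (limma, adjusted p = 0.733). The cyp27a1.1 signal was dim, at means of 4.39 in CREB and 3.74 in control, beside 4.33 and 4.08 for the tag control probe sets. The gene star, whose product carries cholesterol into mitochondria of steroid-making cells, read 10.85 on CREB array 1 and 12.25 on control array 3. It read 4.23 to 5.68 on the other 8 arrays and did not pass.

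**Figure D5:**
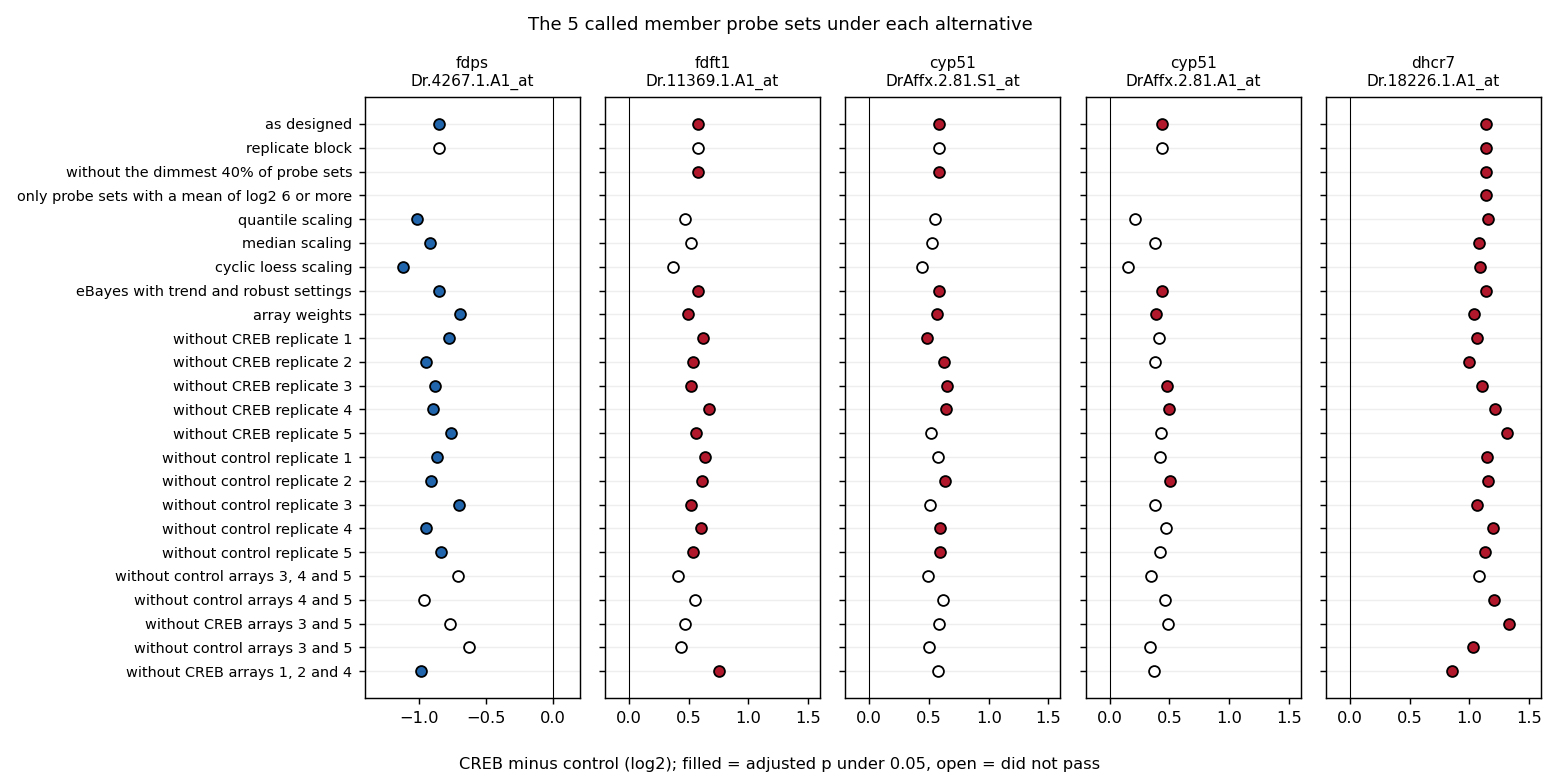
Difference, CREB minus control (horizontal axes, log2), of the 5 called probe sets under each way of processing (rows), with filled points where the adjusted p was under 0.05 and open points where it was not. The dhcr7 points stay between 0.85 and 1.33, and those of the brighter fdps probe set between -1.11 and -0.62, while the open points of fdft1 and cyp51 include the 3 scalings.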

How the data were processed

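Biotin-labelled cRNA of kidney marrow from 5 CREB and 5 control fish was hybridised to Affymetrix zebrafish arrays, per the labels' protocols. The authors deposited 1 table of processed values for 15617 probe sets, read as log2 from the values themselves. How the authors summarised and scaled them is not stated in the labels used here. Without 115 control probe sets, 15502 were tested. Symbols came from the platform annotation and were updated by gene ID through RefSeq names (GRCz12tu). A single symbol stood on 10795 probe sets, several on 135 and none on 4572.

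The 2 groups entered 1 limma model without covariates (lmFit and eBayes; limma 3.58.1, R 4.3.3). Named genes were all members, and from each sterol or lipid list the genes past the threshold, at most 6, with the 6 genes most alike, clone names passed over. Members and lists were chosen with earlier results of these data known. The deposited log2 table gives no depth, and 5 arrays a group limit the precision. The fit was tested on simulated data. Rescaling, filters on dim probe sets, the replicate number, array weights and left-out arrays were tried as alternatives. Sequences of the probes are not printed here.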

Additional observations from a re-analysis of the deposited data

Results flagged for a closer look

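Among the 24 groups of 5 arrays, 1 held an array far from the others. In the brightest insig1 probe set, control array 1 read 7.14, while the other 4 control arrays read 6.49 to 6.65, a gap of 0.75 of the group's range. Chance alone flags about 1 in 20 such groups.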

How the results depend on the processing

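The deposited scaling, the spread between arrays and the signal of the probe sets, 9 of the 12 with a mean under 6, limit these results. As designed, 4692 probe sets, 5 probe sets of the chain and 4 of its genes passed. Those counts were 2033, 3 and 3 without the dimmest 40% of probe sets, and 1526, 1 and 1 with only probe sets at a mean of 6 or more, which tests 3 of the 12. They were 2852, 3 and 2 with quantile scaling, 3163, 3 and 2 with median scaling, and 2837, 3 and 2 with cyclic loess; calls in the higher direction made up 77.6% as designed and 60.4%, 63.3% and 51.9% under these scalings. They were 875, 1 and 1 without control arrays 4 and 5, the ones with high pancreas markers, 2034, 1 and 1 without CREB arrays 3 and 5, and 369, 0 and 0 without control arrays 3, 4 and 5, where limma gave 3 of the 12 an unadjusted p under 0.05. Of the alternatives added after seeing the data, they were 2436, 1 and 1 without control arrays 3 and 5, and 4379, 4 and 3 without CREB arrays 1, 2 and 4, the ones with low hybridisation spike-ins. The last of these keeps only CREB arrays 3 and 5, the ones with low signal for the start of gapdh. There, 1 of the 4 probe sets was the second insig1 probe set, called lower. Leaving out 1 array at a time gave 3125 to 5163, 3 to 6 and 3 to 4: the lowest count over all probe sets came without CREB array 5, and that of the chain's probe sets without CREB array 5, control array 1 or control array 3. Under these 10, dhcr7, fdft1 and the brighter fdps probe set kept their calls. The median difference of the 6 genes lay between 0.45 and 0.65 in the alternatives that keep all 6, while the 2 filters on dim probe sets leave 5 and 3 of them, without fdps. The causes were not tested beyond the fewer arrays or probe sets in those alternatives that leave some out.

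With the replicate number as a block, 2378 probe sets, 1 probe set of the chain (dhcr7) and 1 gene passed. The numbers are not known to pair the arrays: the correlation of same-numbered arrays ran from -0.02 to 0.27, and 2 of 10 arrays lay closest to their own number.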
